A study of Mus musculus with 6 samples.

Results

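The 42 genes described here are genes of the cell cycle, 18 of S phase and 24 of mitosis, chosen by symbol from the 48440 rows of the deposited gene read counts. The study microinjected an adeno-associated virus (AAV5) into unilateral L3/4 dorsal root ganglia (DRGs), the clusters of sensory neurons beside the spinal cord, of wild-type male mice. Control DRGs received AAV5-*Gfp*, expressing green fluorescent protein, and the others received AAV5-*V1* mixed with AAV5-*V2* (written AAV5-*V1+V2*), which express the full-length variants of the nerve injury–specific noncoding RNA *NIS-lncRNA*. Each group had 3 libraries of total RNA, labeled replicates 1, 2, and 3. The deposited text gives 5 weeks after microinjection for tissue collection in one sentence and 4 weeks for the expression profile in another. The labels give no age, do not say whether a library came from a single animal or from pooled DRGs, and name no promoter for the transgenes. Each group received its own virus preparation, so that the RNA carried and the preparation cannot be told apart. Whether the *NIS-lncRNA* variants were overexpressed was not analysed here.

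A dividing cell passes from G1, where it commits to division, through S phase, where it copies its DNA, to G2 and mitosis, where it separates the copies. E2F transcription factors switch on the genes of S phase, and many genes of mitosis carry a cell cycle homology region (CHR) that the DREAM complex holds silent in resting cells and that B-MYB and FOXM1 complexes use later in the cycle. Adult sensory neurons are postmitotic, whereas satellite glia, Schwann cells, macrophages, lymphocytes, endothelial cells, and fibroblasts of a ganglion can divide.

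Of the 42 members, 24 were upregulated with AAV5-*V1+V2*, 0 were downregulated, and the other 18 did not pass. Calls were made with edgeR's quasi-likelihood test where the p adjusted by Benjamini-Hochberg was under 0.05. The median log2 fold change was 0.99 for the mitotic genes and 0.66 for the S phase genes. The upregulated members ranged from *Rrm1* (log2 fold change 0.34) to *Top2a* (1.70). Over all 18593 genes tested, 10.1% were called higher and 5.27% lower. The estimate was above 0 for 41 members (42 with scaling by total counts), with a median log2 fold change of 0.85, against −0.0003 over all genes tested. At an unadjusted p under 0.05, 36 members were higher and 0 lower, against 19.2% and 15.5% of all genes tested. Because the libraries are bulk RNA, more dividing cells and more of these transcripts per cell cannot be told apart.

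All 42 members passed the filter on low counts, the lowest mean count with AAV5-*Gfp* being 12.67 (*Cdt1*). Total counts were between 32025612 and 34764282 per library. Levels are given as CPM, the reads of a gene relative to the size of its library after edgeR's TMM scaling. The labels do not state that replicates are separate animals. The p-values set the difference between groups against the spread between libraries within a group, which need not be the spread between animals.

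**Figure D1:**
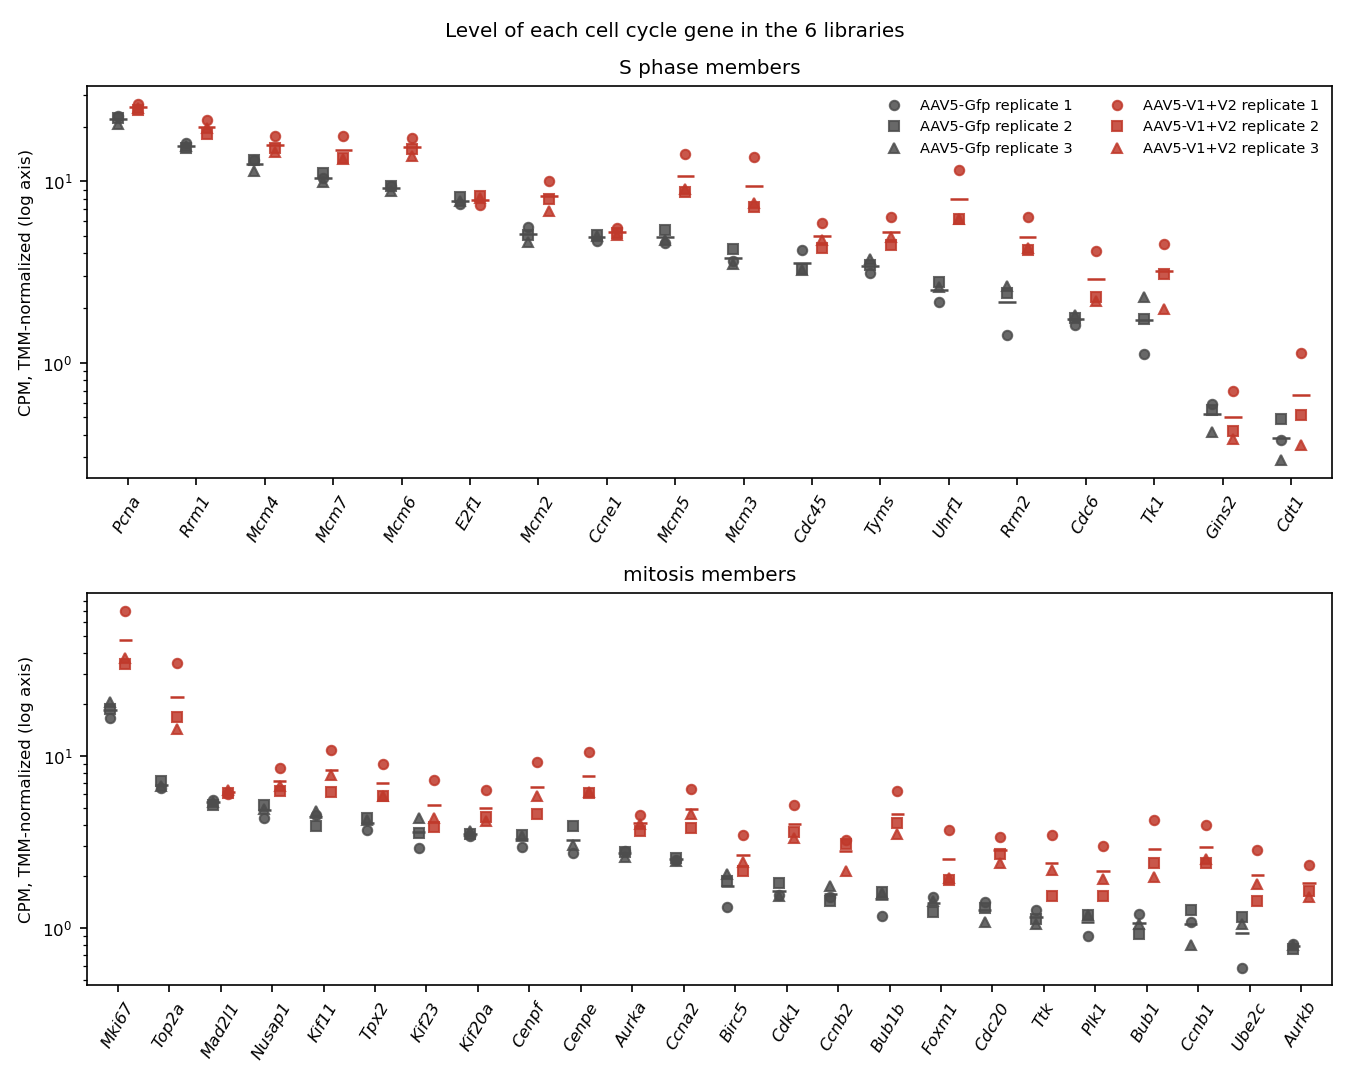
Level of each cell cycle gene (CPM, log axis) in the 3 AAV5-*Gfp* libraries (gray) and the 3 AAV5-*V1+V2* libraries (red), with the symbol shape giving the replicate and short bars the group means. The red circles of AAV5-*V1+V2* replicate 1 are the highest points for 40 of 42 genes.

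The promoters of the members with the smallest adjusted p are shown with the short motifs that were counted in each class. Windows of 250 bases before to 50 bases after the annotated start (RefSeq, GRCm38.p6) were found for 35 of the 42 members, 16 of S phase and 19 of mitosis. *Mcm4*, *Gins2*, *Aurkb*, *Ccna2*, *Tpx2*, *Foxm1*, and *Kif20a* were not matched. The motifs searched on both strands were the CHR (TTTGAA), the CCAAT box (CCAAT), and 3 forms of E2F site (TTTCGCGC, TTTGGCGC, and TTCCCGCC). Capitals mark matches on either strand. TTTCGCGC and TTTGGCGC can overlap on opposite strands, as they do in *Mcm5* and *Mcm6*, where the joined match runs over 12 bases.

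The S phase promoters belong to *Mcm6* (chr1:128359656-128359955, minus strand), *Uhrf1* (chr17:56303087-56303386, plus strand), and *Mcm5* (chr8:75109259-75109558, plus strand), written 5′ to 3′.
Mcm6 promoter: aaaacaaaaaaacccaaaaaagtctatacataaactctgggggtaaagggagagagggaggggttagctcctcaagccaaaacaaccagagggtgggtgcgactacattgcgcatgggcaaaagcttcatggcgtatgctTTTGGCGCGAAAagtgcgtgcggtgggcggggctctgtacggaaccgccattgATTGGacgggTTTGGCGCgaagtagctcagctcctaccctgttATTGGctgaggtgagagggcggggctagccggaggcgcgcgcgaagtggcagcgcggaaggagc
Uhrf1 promoter: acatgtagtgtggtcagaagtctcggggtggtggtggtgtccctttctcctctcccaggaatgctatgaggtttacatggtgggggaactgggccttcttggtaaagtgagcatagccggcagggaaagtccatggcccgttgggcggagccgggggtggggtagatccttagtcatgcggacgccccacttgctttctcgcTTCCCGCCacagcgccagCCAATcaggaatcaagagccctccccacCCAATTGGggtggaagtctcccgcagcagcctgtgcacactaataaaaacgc
Mcm5 promoter: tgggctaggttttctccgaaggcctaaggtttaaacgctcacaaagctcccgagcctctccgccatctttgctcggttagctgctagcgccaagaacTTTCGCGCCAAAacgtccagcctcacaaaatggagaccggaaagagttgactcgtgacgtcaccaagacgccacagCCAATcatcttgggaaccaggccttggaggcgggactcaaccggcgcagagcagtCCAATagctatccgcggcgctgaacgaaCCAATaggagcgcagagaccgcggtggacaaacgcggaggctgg

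The mitotic promoters belong to *Bub1b* (chr2:118597961-118598260, plus strand), *Cdk1* (chr10:69352863-69353162, minus strand), and *Cdc20* (chr4:118437294-118437593, minus strand).
Bub1b promoter: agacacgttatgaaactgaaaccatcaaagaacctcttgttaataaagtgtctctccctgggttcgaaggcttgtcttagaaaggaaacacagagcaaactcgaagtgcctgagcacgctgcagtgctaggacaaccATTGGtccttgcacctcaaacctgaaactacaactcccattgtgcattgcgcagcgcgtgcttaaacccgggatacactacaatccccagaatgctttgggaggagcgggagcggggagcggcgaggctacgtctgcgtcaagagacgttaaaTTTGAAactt
Cdk1 promoter: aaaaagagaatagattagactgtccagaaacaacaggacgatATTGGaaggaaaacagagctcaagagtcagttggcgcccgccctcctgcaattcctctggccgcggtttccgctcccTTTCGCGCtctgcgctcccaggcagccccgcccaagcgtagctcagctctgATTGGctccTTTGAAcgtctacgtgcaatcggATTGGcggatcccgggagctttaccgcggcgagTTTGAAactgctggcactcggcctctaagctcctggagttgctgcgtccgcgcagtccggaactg
Cdc20 promoter: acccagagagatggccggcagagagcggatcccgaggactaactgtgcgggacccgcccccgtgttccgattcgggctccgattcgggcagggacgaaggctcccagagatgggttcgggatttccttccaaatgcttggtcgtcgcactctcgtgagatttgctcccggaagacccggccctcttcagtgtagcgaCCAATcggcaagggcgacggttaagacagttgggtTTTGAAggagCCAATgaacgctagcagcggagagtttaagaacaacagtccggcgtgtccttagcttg

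The CHR letters were found in all 3 mitotic promoters shown and in none of the 3 S phase promoters shown. Over the classes, TTTGAA was present in 13 of 19 mitotic windows (68.4%) and in 2 of 16 S phase windows (12.5%), against 17.9% of all 32851 windows of the table. Any of the 3 E2F forms was present in 7 of 16 S phase windows (43.8%) and in 1 of 19 mitotic windows (5.26%), that of *Cdk1*, against 2.96% of all windows. TTTCGCGC alone was in 18.8% of S phase, 5.26% of mitotic, and 0.323% of all windows. TTTGGCGC was in 25.0% of S phase windows and 0.514% of all windows, and in 0 mitotic windows. TTCCCGCC was in 18.8% of S phase windows and 2.19% of all windows, and in 0 mitotic windows. The CCAAT letters were frequent in both classes, in 62.5% of S phase and 84.2% of mitotic windows against 37.4% of all windows. These are matches of letters, and binding was not measured.

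Of the 18 S phase members, 8 were upregulated, and the other 10 did not pass the threshold. The log2 fold changes ranged from −0.06 to 1.66 with a median of 0.66. The 6 subunits of the MCM helicase, which unwinds DNA at the replication fork, included 5 of these 8. *Mcm6* measured 9.36, 9.38, and 8.84 CPM in AAV5-*Gfp* replicates 1, 2, and 3 and 17.4, 15.1, and 13.8 CPM in AAV5-*V1+V2* replicates 1, 2, and 3. The groups did not overlap, and the log2 fold change of 0.74 ± 0.11 (SE, n = 3 per group) had the smallest adjusted p of the members, 0.0144 in edgeR's quasi-likelihood test. *Mcm5* measured 4.56, 5.40, and 4.74 CPM with AAV5-*Gfp* and 14.1, 8.77, and 9.01 CPM with AAV5-*V1+V2* in replicate order. Its lowest AAV5-*V1+V2* library was above its highest AAV5-*Gfp* library, with a log2 fold change of 1.11 ± 0.20 (adjusted p = 0.0191). *Mcm3* measured 3.63, 4.21, and 3.49 CPM against 13.5, 7.21, and 7.61 CPM. This was the widest change among the helicase subunits, 1.32 ± 0.26 on the log2 scale (adjusted p = 0.0225), and AAV5-*V1+V2* replicate 1 stood above the other 2 libraries of its group. *Mcm2* (0.70, adjusted p = 0.0359) and *Mcm7* (0.50, adjusted p = 0.0475) were also upregulated. *Mcm4* had a log2 fold change of 0.34 and did not pass (adjusted p = 0.0755). *Mcm7* shares 7.25% of its exon bases with *Ap4m1* on the opposite strand, and how the counting used strand is not given in the sources used here.

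*Uhrf1*, which brings the maintenance DNA methyltransferase to newly copied DNA, had the widest change of the S phase members. Its levels were 2.17, 2.77, and 2.60 CPM with AAV5-*Gfp* and 11.5, 6.19, and 6.21 CPM with AAV5-*V1+V2*. All 3 AAV5-*V1+V2* libraries were above the controls, replicate 1 by the widest margin. The mean rose from 2.51 ± 0.309 to 7.95 ± 3.04 CPM (SD, n = 3), a log2 fold change of 1.66 ± 0.27 (SE, adjusted p = 0.0159). *Pcna*, the sliding clamp of the replication fork, measured 23.0, 22.3, and 20.8 CPM with AAV5-*Gfp* and 26.7, 24.8, and 25.3 CPM with AAV5-*V1+V2*. Those groups did not overlap either, but the log2 fold change was 0.22 ± 0.07 and the adjusted p 0.0864. The annotation also holds the pseudogenes Pcna-ps1 and Pcna-ps2, and the assignment of reads between near-identical copies is not known.

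Of the 4 enzymes of nucleotide synthesis 2 were upregulated, and all 4 were higher at an unadjusted p under 0.05. *Rrm2*, the regulated subunit of ribonucleotide reductase, measured 1.43, 2.42, and 2.66 CPM with AAV5-*Gfp* and 6.38, 4.18, and 4.26 CPM with AAV5-*V1+V2*. The libraries of the 2 groups were separate, and the log2 fold change was 1.18 ± 0.28 (SE, adjusted p = 0.0336). Its large subunit *Rrm1* rose by less, from 15.7 ± 0.468 to 19.9 ± 1.75 CPM (SD, n = 3), a log2 fold change of 0.34 (adjusted p = 0.0448). *Tyms*, thymidylate synthase, had a log2 fold change of 0.62 and lay at the edge of the threshold (adjusted p = 0.0510), and a pseudogene, Tyms-ps, is annotated. Thymidine kinase *Tk1* had an estimate of 0.89 with an adjusted p of 0.128, and its lowest AAV5-*V1+V2* library, 1.98 CPM, lay below the highest AAV5-*Gfp* library, 2.31 CPM.

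None of the 4 members that license and fire origins passed the threshold, where 10.1% of all genes tested were called higher. With 4 genes, 0 called is not far from that share. At an unadjusted p under 0.05, 2 of the 4 were higher, against 19.2% of all genes tested. *Cdc6*, which loads the helicase, was at 1.61, 1.76, and 1.83 CPM with AAV5-*Gfp* and at 4.13, 2.31, and 2.19 CPM with AAV5-*V1+V2* (log2 fold change 0.73, adjusted p = 0.106). *Cdc45*, a partner of the moving helicase, had a log2 fold change of 0.48 (adjusted p = 0.104). *Cdt1*, the loading partner of *Cdc6*, had the lowest level of all members with AAV5-*Gfp* and a log2 fold change of 0.77 ± 0.48 (SE, adjusted p = 0.291), with overlapping groups. *Gins2*, a subunit of the GINS complex, had an estimate of −0.06 (adjusted p = 0.916), which turned to 0.0007 with scaling by total counts, and 67.3% of its exon bases lie opposite exons of *Gse1*. The transcription factor *E2f1* (0.02, adjusted p = 0.898) and its partner in S phase entry *Ccne1*, cyclin E1 (0.09, adjusted p = 0.595), were, with *Gins2*, the members nearest 0. *E2f1* measured 7.47, 8.14, and 7.79 CPM with AAV5-*Gfp* and 7.36, 8.32, and 8.08 CPM with AAV5-*V1+V2*, with the libraries of the 2 groups interleaved.

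Of the 24 mitosis members, 16 were upregulated, and all 24 had estimates above 0, from 0.19 to 1.70 with a median of 0.99. Among the 7 cyclins, kinases, and regulators of entry into mitosis, 5 passed the threshold. *Cdk1*, the kinase that drives mitosis, measured 1.55, 1.82, and 1.54 CPM with AAV5-*Gfp* and 5.17, 3.61, and 3.32 CPM with AAV5-*V1+V2*. No library of one group reached the other, and the log2 fold change was 1.30 ± 0.21 (SE, adjusted p = 0.0159). *Ccnb1*, cyclin B1, its activating partner, measured 1.08, 1.27, and 0.801 CPM against 3.98, 2.40, and 2.54 CPM. It was upregulated by 1.49 ± 0.27 on the log2 scale (adjusted p = 0.0193), the widest change of this set. *Ccna2* (0.98, adjusted p = 0.0267), *Ccnb2* (0.84, adjusted p = 0.0381), and the centrosome kinase *Aurka* (0.58, adjusted p = 0.0385) were upregulated as well. The polo-like kinase *Plk1* (0.98, adjusted p = 0.0586) and the mitotic transcription factor *Foxm1* (0.85, adjusted p = 0.0925) did not pass. The pseudogenes Ccnb1-ps and Ccnb2-ps are annotated, and *Ccna2* shares 12.5% of its exon bases with *Exosc9* on the opposite strand.

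The spindle checkpoint, which holds a cell before anaphase until its chromosomes are attached, had 2 of 4 members upregulated. *Bub1b*, encoding the checkpoint protein BUBR1, measured 1.18, 1.62, and 1.60 CPM with AAV5-*Gfp* and 6.26, 4.09, and 3.53 CPM with AAV5-*V1+V2*. It had the smallest adjusted p of the mitosis members, 0.0151, with a log2 fold change of 1.65 ± 0.26 (SE, n = 3 per group). The checkpoint kinase *Bub1* measured 1.21, 0.923, and 1.06 CPM against 4.26, 2.37, and 1.98 CPM, again without overlap (log2 fold change 1.43, adjusted p = 0.0294). *Ttk*, the kinase MPS1, had an estimate of 1.06 (adjusted p = 0.0590). *Mad2l1*, the checkpoint effector MAD2, was at 5.58, 5.19, and 5.38 CPM with AAV5-*Gfp* and at 6.05, 6.10, and 6.33 CPM with AAV5-*V1+V2*, a log2 fold change of 0.19 (adjusted p = 0.245). Its libraries did not overlap, but the distance between the groups was small beside that of *Bub1b*.

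Of the kinetochore motor, kinetochore protein, and chromosomal passengers, 3 of 4 were upregulated. *Aurkb*, the passenger kinase, measured 0.806, 0.750, and 0.801 CPM with AAV5-*Gfp* and 2.34, 1.65, and 1.52 CPM with AAV5-*V1+V2*. The control libraries were nearly alike, and the log2 fold change was 1.22 ± 0.23 (SE, adjusted p = 0.0205). *Cenpe*, a kinetochore motor (1.24, adjusted p = 0.0258), and *Cenpf* (1.00, adjusted p = 0.0420) were upregulated. *Birc5*, survivin, the partner of *Aurkb*, had an estimate of 0.61 and did not pass (adjusted p = 0.135). Among 5 spindle motors and assembly factors, *Kif11* (0.91, adjusted p = 0.0347), *Tpx2* (0.76, adjusted p = 0.0446), and *Nusap1* (0.56, adjusted p = 0.0481) were upregulated. The cytokinesis motors *Kif20a* (0.49, adjusted p = 0.109) and *Kif23* (0.52, adjusted p = 0.218) did not pass. *Kif20a* shares 29.3% of its exon bases with *Cdc23* on the opposite strand, and the libraries of *Kif23* overlapped between groups.

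*Top2a* and *Mki67*, which shape and coat mitotic chromosomes and are standard markers of proliferation, were both upregulated. *Top2a*, topoisomerase II alpha, measured 6.57, 7.19, and 6.70 CPM with AAV5-*Gfp* and 35.01, 17.0, and 14.5 CPM with AAV5-*V1+V2*. This was the widest change of all 42 members, a log2 fold change of 1.70 ± 0.32 (SE, adjusted p = 0.0212). *Mki67*, the Ki-67 antigen, measured 16.7, 18.7, and 20.6 CPM against 70.1, 34.2, and 37.4 CPM (log2 fold change 1.34 ± 0.27, adjusted p = 0.0235). For both genes AAV5-*V1+V2* replicate 1 was about as far above replicates 2 and 3 as those were above the controls on a log scale, and no libraries overlapped between groups. *Cdc20*, which activates the anaphase-promoting complex, measured 1.43, 1.30, and 1.09 CPM with AAV5-*Gfp* and 3.40, 2.70, and 2.39 CPM with AAV5-*V1+V2*. It was upregulated by 1.15 ± 0.20 on the log2 scale (adjusted p = 0.0182). *Ube2c*, the ubiquitin-conjugating enzyme of that complex, had an estimate of 1.12 (adjusted p = 0.0666), and 22.8% of its exon bases lie opposite *Tnnc2*.

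**Figure D2:**
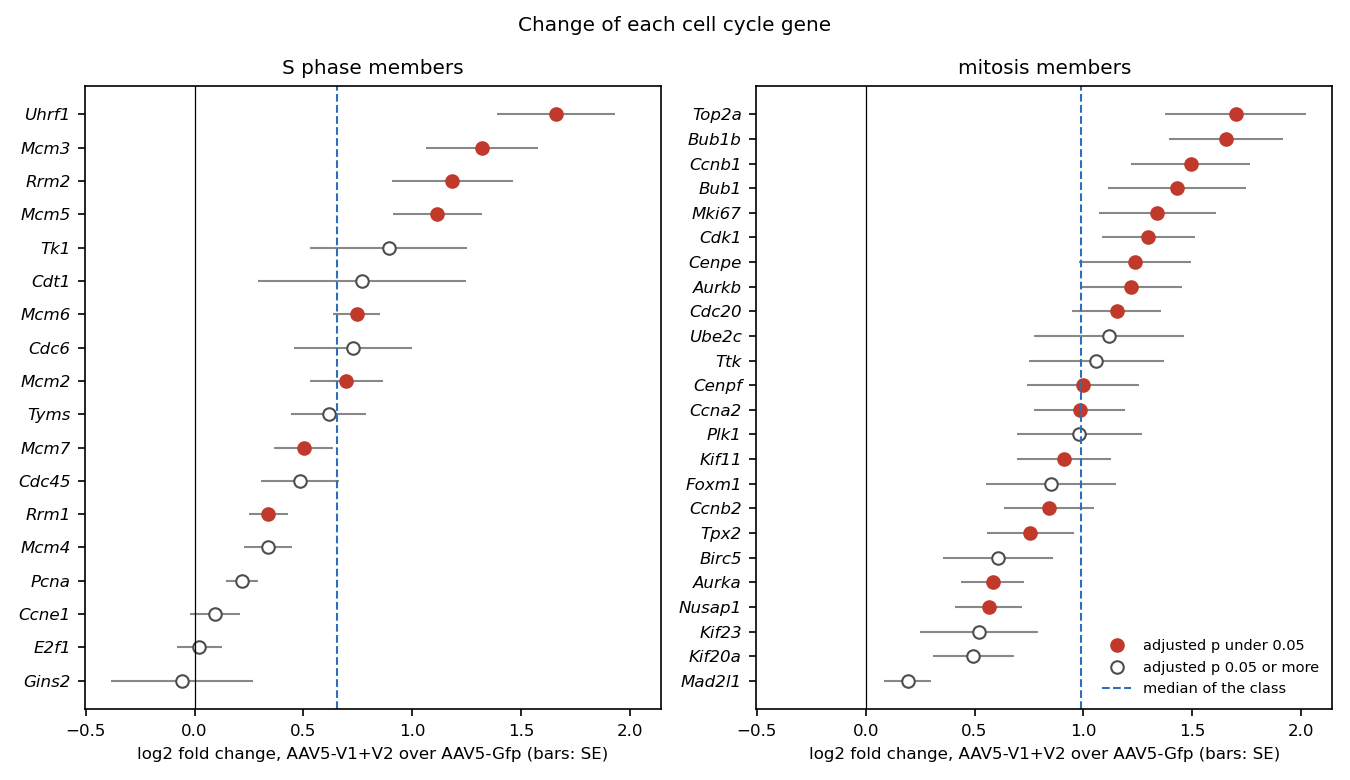
Log2 fold change of each member, AAV5-*V1+V2* over AAV5-*Gfp* (bars are SE, n = 3 per group), with filled points at an adjusted p under 0.05 and dashed lines at the class medians of 0.66 for S phase and 0.99 for mitosis. Filled points make up 8 of 18 S phase and 16 of 24 mitosis members, and *Gins2* alone lies below 0 (at 0.0007 with total counts).

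The groups did not overlap for 36 of the 42 members, with every AAV5-*V1+V2* library above every AAV5-*Gfp* library, a pattern met by 23.4% of all genes tested. These were 13 of the 18 S phase members and 23 of the 24 mitosis members. The overlapping members were *Tk1*, *Cdt1*, *Ccne1*, *E2f1*, *Gins2*, and *Kif23*. In an exact 2-sided permutation test of a single member over 3 against 3 libraries, p cannot go below 0.1, and the 36 separated members were at that value.

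S phase and mitosis were compared by their summed levels and medians, without a test, because the members were chosen with results of these data known. The summed level of the S phase members was 112.5, 115.3, and 109.2 CPM with AAV5-*Gfp* and 192.2, 149.7, and 148.1 CPM with AAV5-*V1+V2* in replicate order. The ratio of the group means was 1.45. The summed level of the mitosis members was 73.2, 80.1, and 81.6 CPM with AAV5-*Gfp* and 229.2, 130.6, and 135.6 CPM with AAV5-*V1+V2*, a ratio of 2.11. The mitotic sum was below the S phase sum in all 3 control libraries and above it in AAV5-*V1+V2* replicate 1. *Top2a* and *Mki67* made up 105.1 of the 229.2 CPM in that library, and the other 22 mitosis members summed to 124.1 CPM there, below the S phase sum. Divided by the S phase sum of the same library, the mitotic sum was 0.650, 0.695, and 0.747 with AAV5-*Gfp* and 1.19, 0.872, and 0.916 with AAV5-*V1+V2*, without overlap. Without *Top2a* and *Mki67*, left out after the values were seen, the ratio was 0.444, 0.470, and 0.498 with AAV5-*Gfp* and 0.646, 0.531, and 0.565 with AAV5-*V1+V2*, and the groups did not overlap either. The medians of the log2 fold changes differed by 0.33 between the classes. The classes themselves overlapped widely. *Uhrf1*, *Mcm3*, *Rrm2*, and *Mcm5* were S phase members above the mitotic median, and *Mad2l1*, *Kif20a*, *Kif23*, *Nusap1*, *Aurka*, and *Birc5* were mitosis members below the S phase median.

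Levels per kilobase of exon (CPM per kb, over the GENCODE M21 exons of each gene) set the members in order. With AAV5-*Gfp* the highest were *Pcna* at 9.18, *Mcm4* at 3.48, *E2f1* at 2.47, *Mcm7* at 2.36, *Mcm6* at 1.97, and *Mki67* at 1.85 CPM per kb. The lowest were *Gins2* at 0.126 and *Cdt1* at 0.122 CPM per kb. With AAV5-*V1+V2* *Pcna* stayed at the top with 10.7 CPM per kb, and *Mki67* moved from rank 6 to rank 2 with 4.69 CPM per kb, next to *Mcm4* at 4.40. *Top2a* moved from rank 18 to rank 9 and *Uhrf1* from rank 24 to rank 11. Across the 42 members the AAV5-*Gfp* level per kb and the log2 fold change had a Spearman rho of −0.396, a description over genes that share the same 6 libraries. The AAV5-*Gfp* level also enters the fold change, which by itself can lower rho.

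**Figure D3:**
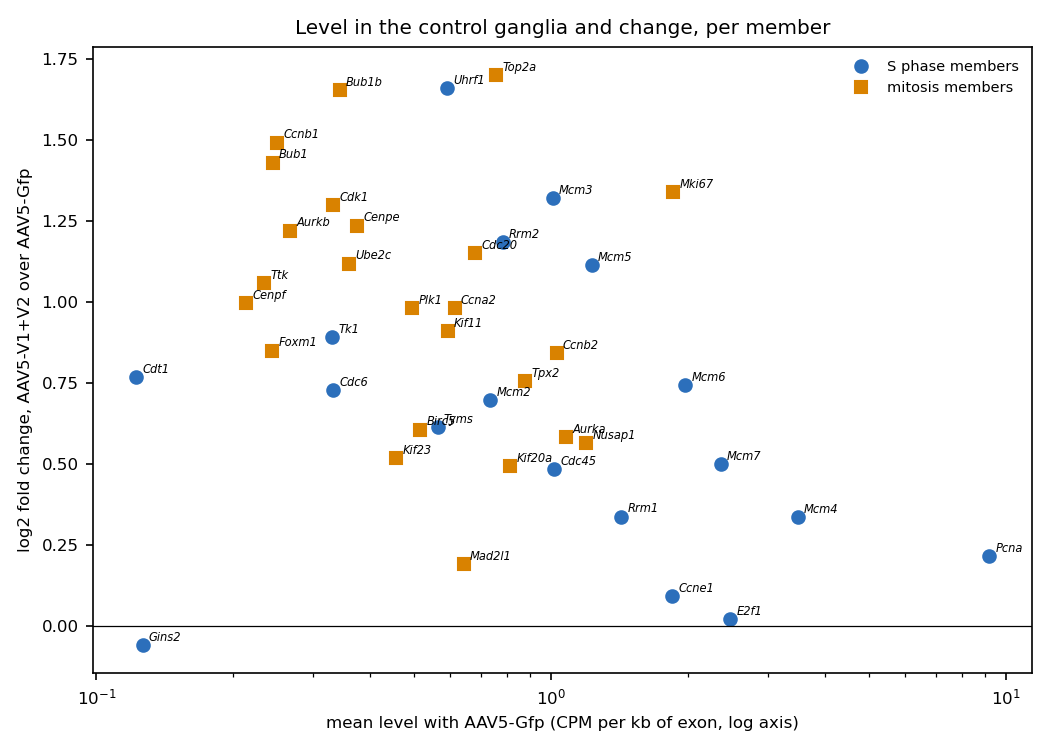
Mean AAV5-*Gfp* level of each member (CPM per kb of exon, log axis) against its log2 fold change, with S phase members as blue circles and mitosis members as orange squares. *Pcna*, the highest member, has a log2 fold change of 0.22, and *Top2a* and *Bub1b*, below 1 CPM per kb, lie near the top.

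AAV5-*V1+V2* replicate 1 was the highest of the 6 libraries for 40 of the 42 members (95.2%), against 33.1% of all genes tested. The exceptions were *E2f1* and *Mad2l1*. Its level divided by the mean of AAV5-*V1+V2* replicates 2 and 3 had a median of 1.53 over the members, with *Cdt1* highest at 2.61 and *E2f1* lowest at 0.897. Relative to the AAV5-*Gfp* mean, the median mitosis member was at 1.44, 0.56, and 0.86 on the log2 scale in AAV5-*V1+V2* replicates 1, 2, and 3. The median S phase member was at 0.90, 0.39, and 0.34 in the same libraries. Both classes were thus highest in replicate 1 and were above the 3 control libraries in replicates 2 and 3 as well. Without AAV5-*V1+V2* replicate 1, 21 members were upregulated, 8 of S phase and 13 of mitosis, where 9.85% of all genes tested were called higher. *Ccnb2*, *Aurka*, and *Nusap1* lost their calls without it. The median log2 fold change without this library was 0.37 for S phase and 0.71 for mitosis, and *Top2a* was at 1.21 (adjusted p = 0.00132).

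The calls depended on each control library. Without AAV5-*Gfp* replicate 1, 0 of 42 members passed in edgeR's quasi-likelihood test, with 32 higher at an unadjusted p under 0.05, where 1.35% of all genes tested passed as higher and 16.3% were higher at the unadjusted p. Without AAV5-*Gfp* replicate 2 the count was 0 with 29 at an unadjusted p under 0.05, where the shares of all genes were 0.0634% and 15.4%. Without replicate 3 it was 0 with 30, where those shares were 0.0792% and 15.5%. The medians over the members were 0.79, 0.81, and 0.90 without AAV5-*Gfp* replicates 1, 2, and 3, on either side of the 0.85 with all libraries. Without AAV5-*V1+V2* replicate 2, 16 members passed, 4 of S phase and 12 of mitosis, against 5.4% of all genes, and *Rrm2*, *Mcm2*, *Rrm1*, and *Mcm7* were the S phase members that lost the call. Without AAV5-*V1+V2* replicate 3, 22 members passed, against 13.1% of all genes.

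Markers of other cell types moved in the same libraries. All 6 markers of B and plasma cells were higher with AAV5-*V1+V2*, with a summed level of 53.1, 45.9, and 46.0 CPM with AAV5-*Gfp* and 344.2, 282.3, and 265.7 CPM with AAV5-*V1+V2*. Most of the AAV5-*Gfp* sum was *Xbp1*, at 43.9, 42.1, and 41.1 CPM, which had a log2 fold change of 0.65. The J chain of secreted immunoglobulin, *Jchain*, had a log2 fold change of 6.41 (adjusted p = 0.00125). It made up 193.7, 180.8, and 168.8 CPM of the AAV5-*V1+V2* sums. The median log2 fold change of the 6 markers was 4.40. Of 6 T and NK cell markers 5 were higher (summed 1.38 to 5.14 CPM against 18.3 to 42.5 CPM), and of 6 macrophage markers 5 were higher (68.9 to 106.0 CPM against 176.0 to 357.1 CPM), *Cd68* by 2.29 and *Csf1r* by 1.51 on the log2 scale. No marker of these 3 lists was at 0 in any library, but some were near it with AAV5-*Gfp*. The lowest count there was 1 in the B and plasma cell list and 3 in the T and NK cell list. Log2 fold changes from such counts are imprecise. The summed macrophage, T cell, and B cell levels were highest in AAV5-*V1+V2* replicate 1, as were those of the members. This was not particular to these lists. The summed endothelial (129.8 CPM), fibroblast (1325 CPM), erythroid (1184 CPM), and neutrophil (196.4 CPM) levels were also highest in that library.

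The defining markers of the DRG were present. The 7 neuronal markers summed to 4583 to 4981 CPM with AAV5-*Gfp* and to 2949, 4169, and 4166 CPM with AAV5-*V1+V2* replicates 1, 2, and 3. Of these *Rbfox3* was lower (−0.93, adjusted p = 0.0256) and the other 6 did not pass. All 7 had estimates below 0, with a median of −0.43. At an unadjusted p under 0.05, 3 were lower and 0 higher, against 15.5% and 19.2% of all genes tested. None of the 5 satellite glia markers (1251 to 1306 CPM against 1001 to 1261 CPM) or the 5 Schwann cell markers (3182 to 3942 CPM against 3390 to 3828 CPM) passed, with 1 and 0 of them lower at an unadjusted p under 0.05 and 0 higher. Of 4 endothelial markers *Pecam1* was higher (0.88, adjusted p = 0.0269), and the other 3 did not pass (median log2 fold change 0.13). The 4 summed to 78.7 to 91.6 CPM against 99.7 to 129.8 CPM, and most of that rise was *Pecam1*. Its mean went from 26.7 to 49.1 CPM, and the summed mean of all 4 from 86.0 to 111.4 CPM. None of 4 fibroblast, 4 erythroid, and 4 neutrophil markers passed. At an unadjusted p under 0.05, 2, 0, and 2 of them were higher, against 19.2% of all genes tested. Their summed levels were 647.6 to 857.2 CPM against 913.2 to 1325 CPM for fibroblasts, 861.4 to 1030 CPM against 795.6 to 1184 CPM for erythroid cells, and 70.9 to 79.4 CPM against 97.8 to 196.4 CPM for neutrophils. Most of the fibroblast rise was *Col1a1*. Its mean went from 168.4 to 381.5 CPM, with 610.8 CPM in AAV5-*V1+V2* replicate 1, and the summed mean of the 4 fibroblast markers from 777.7 to 1085 CPM. The part of any of these cell types in the levels of the cell cycle genes was not tested.

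**Figure D4:**
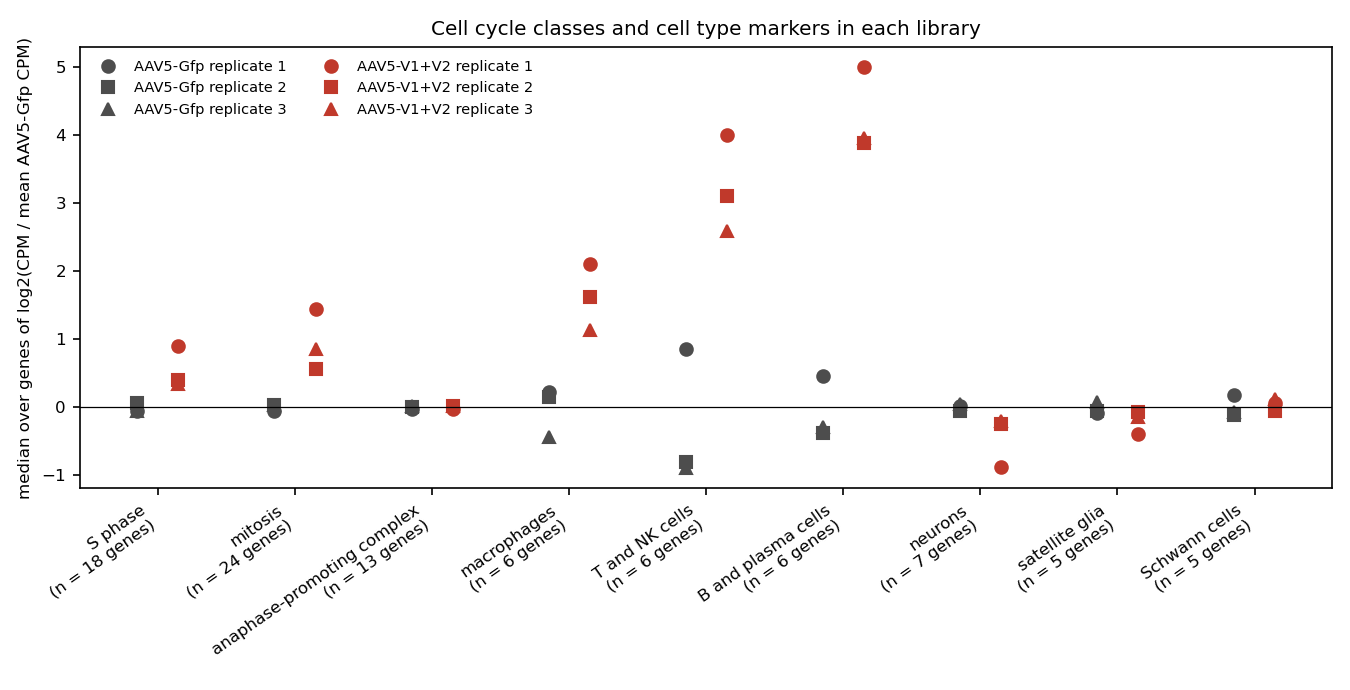
Median over the genes of each list of the log2 ratio of CPM to the AAV5-*Gfp* mean, in each of the 6 libraries, for the S phase and mitosis members, the anaphase-promoting complex, and cell type markers. AAV5-*V1+V2* replicate 1 (red circle) is the highest library for both member classes and the 3 immune lists and the lowest for neurons, and the anaphase-promoting complex stays within 0.03 of 0.

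Genes of the cell cycle that are not among the 42 members were read from 10 lists of 142 genes, all of them tested. Of these, 41 were higher and 0 lower, with a median log2 fold change of 0.33, and 75 were higher and 2 lower at an unadjusted p under 0.05. The shares of all genes tested were 10.1% called higher and 5.27% lower, and 19.2% and 15.5% at the unadjusted p. They also stand beside the counts of each list below. Of the 7 inhibitors of cyclin-dependent kinases, the brakes of the cycle, 0 were called in edgeR's quasi-likelihood test, with 2 higher at an unadjusted p under 0.05. With 7 genes, these counts are not set apart from the shares over all genes tested. *Cdkn1b*, p27, had a log2 fold change of 0.20 (adjusted p = 0.0692), *Cdkn2c* 0.64 (0.108), *Cdkn1a*, p21, 0.20 (0.278), *Cdkn2d* −0.19 (0.306), *Cdkn1c* 0.42 (0.316), *Cdkn2a* 0.25 (0.443), and *Cdkn2b* 0.07 (0.783).

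Of the 8 G1 cyclins and kinases 4 were higher, among them all 3 D-type cyclins, which respond to growth signals. *Ccnd2* measured 17.8, 18.4, and 17.9 CPM with AAV5-*Gfp* and 40.9, 31.4, and 27.9 CPM with AAV5-*V1+V2* (log2 fold change 0.89, adjusted p = 0.0149). *Ccnd3* was higher by 1.28 (adjusted p = 0.0231) and *Ccnd1* by 0.40 (adjusted p = 0.0374). In the list of Rb, E2F, and DREAM genes 5 of 18 were higher, and *E2f2*, unlike *E2f1*, was among them. *E2f2* measured 4.96, 5.25, and 5.48 CPM against 14.0, 8.11, and 9.94 CPM (1.03, adjusted p = 0.0227). The pocket protein gene *Rbl1*, p107 (1.06, adjusted p = 0.0292), and *Mybl2*, B-MYB (1.36, adjusted p = 0.0311), were also higher. The difference between *E2f1* and *E2f2* was not tested.

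Of 15 genes of origin licensing and firing 2 were higher, a share near the 10.1% of all genes tested, *Dbf4*, the activator of the CDC7 kinase (1.01, adjusted p = 0.0203), and *Topbp1* (0.44, adjusted p = 0.0243), with a list median of 0.09. Of 24 genes of the replication fork 0 were called, although 13 were higher at an unadjusted p under 0.05 and the median was 0.31. The nearest were *Pola2* (0.57 with an adjusted p of 0.0501), *Pole* (0.50, 0.0516), and *Fen1* (0.35, 0.0554). Of 12 replication-dependent histone genes 10 were higher, with a median of 0.85. *Hist1h2ap* measured 3.59, 2.92, and 3.65 CPM with AAV5-*Gfp* and 8.97, 6.999, and 6.79 CPM with AAV5-*V1+V2* (1.16, adjusted p = 0.0144). *Hist1h4i* (0.80) and *Hist1h1d* (0.90) were higher as well. Histone genes are near-identical copies, and how reads were shared between them is not given in the sources used here.

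Among the other mitotic lists, 8 of 14 genes of spindle motors and cytokinesis were higher (median 0.88), with *Kif2c*, a microtubule depolymerase, at 1.56 (adjusted p = 0.0172), *Cep55* at 1.49, and *Aspm* at 1.13. Of 17 kinetochore and checkpoint genes 6 were higher (median 0.85), among them *Cenpk* (1.2), the centromeric histone *Cenpa* (1.34), and *Knl1*, which the file lists as *Casc5* (0.87). Of 14 genes of chromosome condensation and cohesion 6 were higher (median 0.53), with log2 fold changes from 0.52 to 1.10. The smallest adjusted p of these belonged to the condensin subunits *Ncaph* (0.86), *Smc4* (0.52), and *Ncapd2* (0.53). The anaphase-promoting complex, whose subunits are present through the cycle, had 0 of 13 genes called in edgeR's quasi-likelihood test. At an unadjusted p under 0.05, 0 were higher and 1 lower. With 13 genes, 0 called is not far from the 10.1% higher and 5.27% lower of all genes tested. The list median was 0.02, against −0.0003 over all genes tested.

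**Figure D5:**
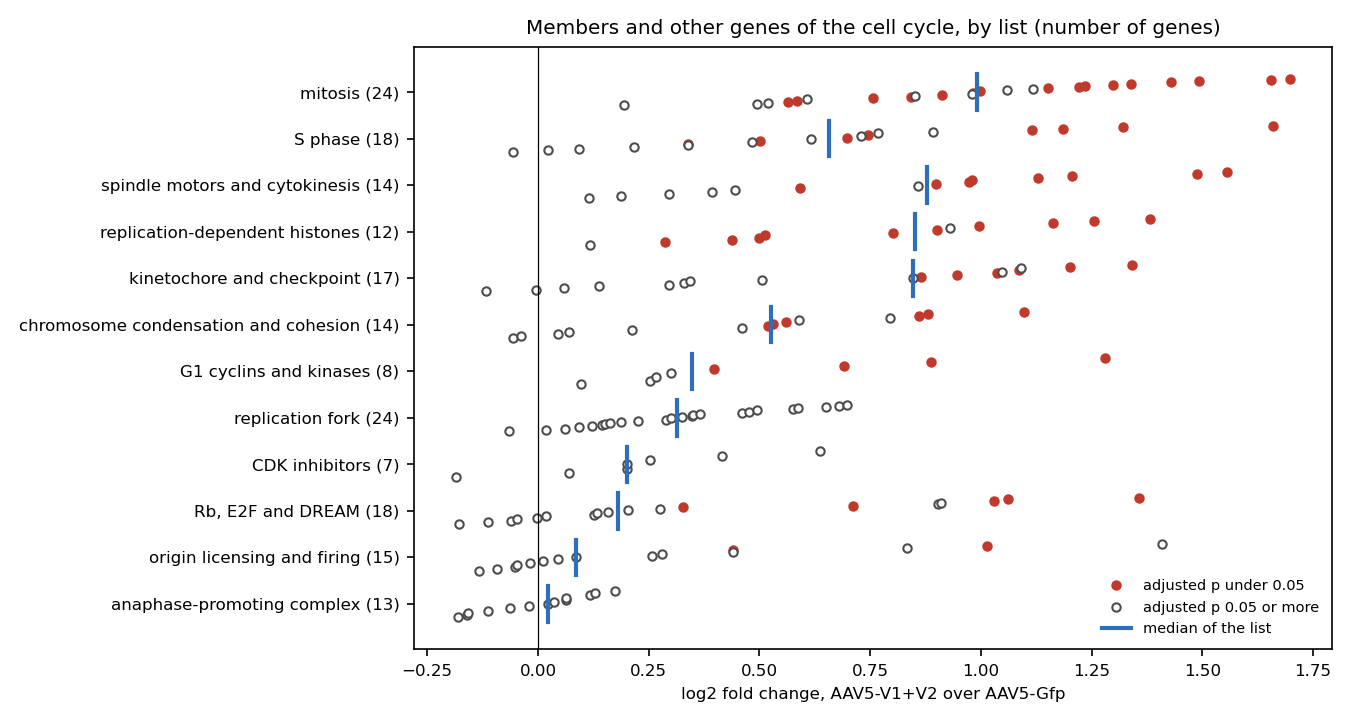
Log2 fold change of each gene in the 2 member classes and in the 10 other cell cycle lists, with filled points at an adjusted p under 0.05 and blue bars at the list medians. The medians run from 0.02 for the anaphase-promoting complex to 0.99 for the mitosis members, and no filled point lies below 0.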

How the data were processed

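RNA from microinjected mouse DRGs was sequenced in 6 libraries, 3 per group, made with a stranded total RNA kit from 1 ug of RNA. The authors deposited raw counts of reads per gene symbol, as whole numbers in a single table. The labels name the builds GRCm38 and mm10. The aligner, counter, annotation, use of strand, and test are not given in the sources used here. In edgeR 4.0.16 (R 4.3.3), filterByExpr took out weakly expressed genes, TMM set the library scaling, and a quasi-likelihood model (glmQLFit, glmQLFTest) with the group as its sole term was used with Benjamini-Hochberg adjustment over the 18593 genes tested. SE was the absolute log2 fold change divided by the square root of F. The members, their classes, the other lists, and the markers were chosen with earlier results of these data known. Named genes were all 42 members, at most 3 genes of each other cell cycle list by adjusted p, every cyclin-dependent kinase inhibitor, and at most 2 markers of each cell type. The result of 1 marker list is not reported here. Gene positions and exon lengths came from GENCODE M21, and *Knl1*, *Sgo1*, and *Sgo2a* were matched by older symbols. Total counts were similar between libraries, and differences between libraries of a group exceeded sampling noise (chi-square per degree of freedom 8.27 to 48.9). Alternatives were RLE factors, total counts, no filter, DESeq2 1.42.0, limma-voom (limma 3.58.1), a replicate block, and leaving out each library. The procedure was tested on simulated data.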

Additional observations from a re-analysis of the deposited data

How the results depend on the processing

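Of the members, 24 were upregulated with TMM, 24 with RLE factors, 26 with total counts, 23 without the filter, 28 with DESeq2, and 18 with limma-voom, and 17 were called in every alternative that kept all libraries. With a replicate block 21 were called. Same-numbered libraries correlated at 0.0424, 0.0611, and 0.154 in their deviations. AAV5-*V1+V2* replicates 2 and 3 correlated best with the AAV5-*Gfp* library of the same number, and replicate 1 with AAV5-*Gfp* replicate 2 (0.0815). The labels state no pairing, and the numbers were not taken to pair the samples. Leaving out a library gave 0 to 22 members, 0 to 8 of S phase and 0 to 14 of mitosis. The lowest value, 0, came without AAV5-*Gfp* replicate 1, 2, or 3, and the cause was not tested. Without AAV5-*V1+V2* replicate 2, 4 S phase and 12 mitosis members were called. Leaving out a library gave 12 to 2474 higher and 0 to 1446 lower genes over all genes tested, the lowest without AAV5-*Gfp* replicate 2 and, for lower genes, also replicate 3 (2029 and 1815 lower at an unadjusted p under 0.05 without AAV5-*Gfp* replicates 2 and 3) and 0 to 51 higher genes in the other cell cycle lists (1, 0, and 0 without AAV5-*Gfp* replicates 1, 2, and 3, with 64, 63, and 66 at an unadjusted p under 0.05). Those lists had 23 higher genes, and all genes tested 1020 higher and 150 lower, without AAV5-*V1+V2* replicate 2. For all genes DESeq2 called 1606 lower against 980. *Gins2*, at −0.06, lay between −0.3696 (without AAV5-*V1+V2* replicate 1) and 0.1185 when a library was left out. It turned to 0.0007 with total counts, to 0.0427 without AAV5-*Gfp* replicate 1, and to 0.0636 and 0.1185 without AAV5-*V1+V2* replicates 2 and 3, and *E2f1*, which ranged up to 0.0765, to −0.0083 and −0.0037 without AAV5-*Gfp* replicate 1 and AAV5-*V1+V2* replicate 2. No other member changed direction in any of the 12 alternatives. The difference of the class medians stayed above 0 in all of them. For *Gins2* and *Cdt1*, with fewer than 40 counts in each library, the depth limits what can be seen.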
